A study of Mus musculus with 3 samples.

Results

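Rhox5, Rhox6 and Rhox9 are homeobox genes of the Rhox (reproductive homeobox) cluster on the mouse X chromosome, and their expression was followed in 3 pluripotent cell lines. All probes carrying these symbols in the platform's probe table were taken, 1 probe for each of the 3 genes, out of 25697 probes on the array and 16593 named genes. The genes were chosen by their measured levels, which were lower in epiblast stem cells (EpiSC) than in embryonic stem cells (ESC), so that difference is given as a description with no test. Gene expression had been measured on Illumina bead arrays, 1 array per line. E3 and T9 are EpiSC lines, which correspond to epiblast after implantation. E3 has a hybrid and T9 a 129 background, and both grew on inactivated CF1 mouse fibroblasts in KSR medium with FGF2 (5 ng/ml) and were collected with collagenase IV. OG2, of hybrid background, is an ESC line, corresponding to epiblast before implantation. It was kept on gelatin in KSR medium with LIF (1000 U), CHIR99021 (3 uM), which blocks GSK3, and PD0325901 (1 uM), which blocks MEK, and was harvested directly on its dish. All 3 lines are listed as untreated. The effects of cell type, culture medium, feeder cells and mode of harvest cannot be told apart, since all of them separate OG2 from the EpiSC lines.

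The Rhox genes encode homeodomain proteins related to the paired-like class and are expressed mainly in reproductive and extraembryonic tissues. Rhox5, formerly Pem, is the founding member, known from mouse ESC, extraembryonic tissues and the Sertoli cells of the testis. Rhox6 (Psx1) and Rhox9 (Psx2) are closely related genes known from the mouse placenta and from germ cells. In the mouse embryo the cluster is known for being silenced by promoter DNA methylation as the epiblast implants. In the RefSeq gene table Rhox5 and Rhox6 are neighbours, and 3 Rhox genes lie between Rhox6 and Rhox9.

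The promoter window of Rhox5 was examined because its probe gave the widest signal range of the 3, and that of Rhox1 because Rhox1 was the only other Rhox gene detected. Both are shown 5′ to 3′ on the strand of the gene, from 250 bases before to 50 bases after the RefSeq start (GRCm38.p6). Rhox5 lies at chrX:37754358-37754657 on the plus strand and Rhox1 at chrX:37222209-37222508 on the minus strand. Capitals mark CpG dinucleotides, the sites of DNA methylation, and the motif CCGGAAG on either strand, a core sequence of ETS-family factors such as GABP.
Rhox5: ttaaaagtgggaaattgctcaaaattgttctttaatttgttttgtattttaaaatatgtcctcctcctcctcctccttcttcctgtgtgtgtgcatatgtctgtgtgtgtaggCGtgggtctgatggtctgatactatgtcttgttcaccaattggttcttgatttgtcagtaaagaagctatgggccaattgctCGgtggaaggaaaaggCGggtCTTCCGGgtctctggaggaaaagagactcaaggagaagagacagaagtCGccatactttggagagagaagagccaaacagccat
Rhox1: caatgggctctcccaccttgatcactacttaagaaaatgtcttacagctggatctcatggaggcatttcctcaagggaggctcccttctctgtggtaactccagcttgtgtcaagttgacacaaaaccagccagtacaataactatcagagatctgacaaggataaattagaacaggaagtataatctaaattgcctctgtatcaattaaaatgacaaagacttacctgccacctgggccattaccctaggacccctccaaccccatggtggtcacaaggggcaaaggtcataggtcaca
The Rhox5 window held 5 CpG, against a median of 7 over 32851 windows of RefSeq promoters, and 62.0% of these held as many or more. The Rhox1 window held 0. CCGGAAG was found on the minus strand of the Rhox5 window, as CTTCCGG beginning 34 bases before the start, and is present in 8.86% of all windows and in 8 of 28 Rhox windows, the other 7 being Rhox2 copies. The GC-box core GGGCGG was not in the Rhox5 window, and the variant GGCGGG stood 41 bases before the start. On either strand, GGGCGG was found in 35.7% and GGCGGG in 35.3% of all windows, and these patterns can overlap each other. The other Rhox genes with both a probe and a window were Rhox10 with 9 CpG, Rhox11 with 7 and Rhox12 with 3.

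The identity of the lines was checked on marker genes. Pou5f1, the POU factor of both pluripotent states, was detected on all 3 arrays. Esrrb, Zfp42, Klf4 and Tbx3 of ESC fell and Fgf5 and Pou3f1 of EpiSC rose (limma, Benjamini-Hochberg adjusted p between 0.0317 and 0.0342). Of 12603 tested probes 1.15% passed that threshold of 0.05. Tbx3 was detected in OG2 only and Fgf5 in E3 and T9 only, which fixed their direction. Of 9 markers tested 6 passed. Pou5f1, Sox2 (log2 difference -0.91, limma adjusted p = 0.168) and the EpiSC marker Otx2 (3.88, adjusted p = 0.0781) did not. The arrays detected 10791, 11171 and 10768 probes in E3, T9 and OG2 at a detection p under 0.01, with a median bead standard error between 4.17% and 4.36% of the signal over detected probes. The lowest signal that counted as detected was 93.4 in OG2, 93.6 in T9 and 95.5 in E3. Precision is limited by having 3 arrays.

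Rhox5 was bright in the ESC line and close to the detection limit in both EpiSC lines. Its scanner signal was 5511 ± 179 in OG2, 138 ± 6.71 in T9 and 98.6 ± 3.44 in E3 (linear intensity ± standard error over the beads of 1 array, which covers error within that array only). The detection p, the share of background controls at least as bright, was 0 in OG2 and T9 and 0.00251 in E3, so the gene counted as detected on all 3 arrays. In E3 the signal lay 3.02 above the lowest detected signal, less than the bead standard error, while in T9 it lay 44.7 above. The uncorrected signal of OG2 was 55.9 times that of E3 and 39.9 times that of T9.

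After background correction and quantile normalization the Rhox5 level was 12.52 in OG2, 6.13 in T9 and 5.01 in E3 (normalized log2 intensity). OG2 was thus 182-fold above E3 and 83.6-fold above T9. The mean difference between EpiSC and ESC was -6.95 on the log2 scale (EpiSC mean 5.57 ± 0.80, SD, n = 2). This was the lowest measured mean difference among 8688 tested genes, some of which have only a bound because their EpiSC values lay at background. In each line taken alone Rhox5 had rank 2 from the lowest, and the gene was chosen by this difference. In the authors' processed value table Rhox5 was listed at 5978 in OG2, 57.2 in T9 and 18.2 in E3, so OG2 stood 328 times above E3 and 105 times above T9 there. The folds thus differed with the treatment of background, and the order of the lines was the same in the scanner signals, the normalized levels and the authors' values.

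Rhox9 was detected in the ESC line only. Its signal was 430 ± 19.2 in OG2, 89.8 ± 2.58 in T9 and 84.2 ± 3.00 in E3 (intensity ± bead standard error). The detection p was 0.0338 in T9 and 0.274 in E3, so T9 missed the limit of 0.01 and would have passed one of 0.05. The normalized log2 level was 8.58 in OG2, 4.59 in T9 and 4.32 in E3. With the EpiSC arrays set to their lowest detected level, Rhox9 was at least 13.5-fold lower in EpiSC than in ESC. By line this was at least 13.1-fold in E3 and at least 13.9-fold in T9. These bounds hold for the background correction used here, and with none the fold was 5.19. The authors' table lists 377 in OG2 and 8.18 in T9, and leaves E3 blank.

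Rhox6 gave the smallest signal of the 3 probes in OG2 and was also detected there only. It measured 196 ± 8.98 in OG2, 85.1 ± 3.08 in T9 and 78.0 ± 1.72 in E3, with a detection p of 0.178 in T9 and 0.880 in E3. Neither EpiSC value could be told from background. The normalized log2 level was 7.08 in OG2, 4.38 in T9 and 4.17 in E3. Rhox6 was at least 4.78-fold lower in EpiSC (at least 4.64-fold in E3 and 4.92-fold in T9), and 2.48-fold lower with no background correction. The authors' table lists 126 in OG2 and leaves both EpiSC lines blank. Rhox6 and Rhox9 are related in sequence, and whether their probes cross-bind was not tested.

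**Figure D1:**
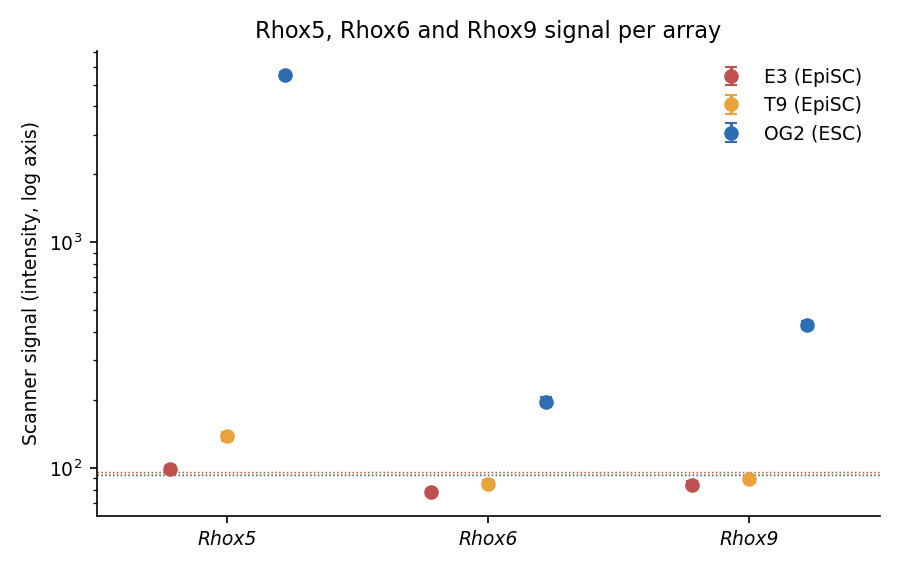
Scanner signal of Rhox5, Rhox6 and Rhox9 on the arrays of E3, T9 and OG2 (linear intensity on a log axis). Points are 1 array each, bars the bead standard error (mostly smaller than the point), and dotted lines the lowest detected signal of each array. OG2 stands above both EpiSC lines for each gene (5511, 196 and 430), and only Rhox5 clears the detection limit in E3 (98.6) and T9 (138).

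For all 3 genes both EpiSC lines lay below the ESC line. This held for 38.7% of all tested genes, and nothing is read from it, since the genes were chosen by it. Detection in ESC alone, as for Rhox6 and Rhox9, was found for 6.27% of tested genes. The filter fixed the direction of both, since a gene detected on the ESC array alone passed through that array. In the same fit 0.865% of 12603 probes were lower in EpiSC at an adjusted p of 0.05 and 0.286% were higher.

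The EpiSC lines differed in Rhox5. T9 exceeded E3 by 39.7 units of signal, with a combined bead standard error of 7.54, and by 1.13 on the log2 scale after normalization (2.18-fold), with 1 array on each side and therefore no test. A difference towards T9 at least as large was found for 238 of 8688 genes (2.74%), and 3.38% of genes were 2-fold or more higher in T9 against 2.41% in E3. The log2 difference was 0.47 with no background correction and 1.69 with a smaller offset in that correction, and 1.65 in the authors' values. For Rhox6 and Rhox9, T9 minus E3 was 0.20 and 0.27, both between values at background that have no order.

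T9 minus E3 was also taken for genes of the lists described below. The ESC markers Esrrb and Zfp42 differed by 1.00 and 0.72 on the log2 scale, Klf4 by 0.17 and Tbx3, not above background in either line, by -0.00034. Dnmt3l, a cofactor of de novo DNA methylation, differed by 2.06, Tfap2c, a transcription factor of trophoblast and germ cells, by 2.42, and the germ cell gene Dppa3 by 0.89. Among germline genes silenced by promoter methylation, Tex19.1 differed by 0.71 and Tuba3a by -0.17. Dazl differed by -0.027 and Asz1 by -0.041, both between values at background that have no order. The median over the 14 tested was 0.012, and 10 of these were above background in neither line. Xist, the RNA that coats the inactive X chromosome, was detected in T9 only (7.65 against 4.22 in E3 and 4.40 in OG2), and the Y-linked gene Eif2s3y in E3 and OG2 (8.45 and 8.22) and not in T9 (4.21). The lines thus differed in their sex chromosome transcripts, and the part of these in the Rhox5 difference was not tested. Over 298 X-linked tested genes the median of T9 minus E3 was 0.056, against -0.0039 over all tested genes.

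The rest of the cluster showed little signal. The RefSeq table holds 34 genes of the cluster with a name outside its pseudogene series. Of 33 other Rhox names looked up, 5 had a probe (6 probes in all, as Rhox12 has 2), and 28 had none under that name, among them the Rhox2, Rhox3 and Rhox4 copies. Rhox1 alone was detected, and in OG2 only, with a signal of 96.1 ± 3.09 against 86.4 ± 2.62 in E3 and 83.9 ± 3.12 in T9. That signal was 2.71 above the limit, within the bead standard error. Rhox1 passed the filter through OG2 alone, which fixed its direction. Its log2 difference between EpiSC and ESC was -0.64 ± 0.25 (limma SE, 2 EpiSC arrays against 1 ESC array) with an adjusted p of 0.240, at least 1.14-fold at the detection limit.

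The other 5 probes were detected on no array. Rhox10, a gene known from germ cells of the mouse testis, measured 88.5 ± 3.00 in OG2, 80.2 ± 2.20 in E3 and 73.4 ± 2.28 in T9, with a detection p of 0.0401 in OG2. Rhox11 measured 86.7 ± 3.26, 79.0 ± 2.14 and 80.1 ± 1.71 in the same order, with a detection p of 0.0827 in OG2. Rhox8, known from Sertoli cells, measured 77.4 ± 1.83, 82.2 ± 3.06 and 78.1 ± 2.65. The Rhox12 probes measured 85.3 and 83.2 in OG2, 88.5 and 74.5 in E3 and 85.9 and 80.7 in T9. All of these lay below the detection limit of their array, so no level can be given for them.

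**Figure D2:**
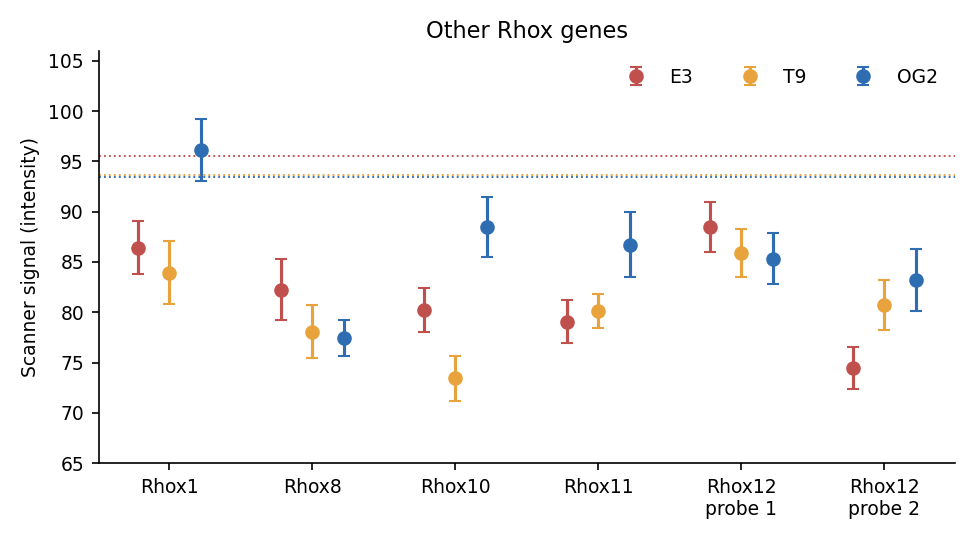
Scanner signal (linear intensity, axis not starting at 0) of the 6 probes of other Rhox genes on the arrays of E3, T9 and OG2. Points are 1 array each, bars the bead standard error and dotted lines the lowest detected signal of each array. Only Rhox1 in OG2 (96.1) lies above its line.

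The genes beside the cluster were measured to see how far the difference reached along the chromosome. No tested gene other than Rhox genes lay within the cluster. Of the 20 nearest tested genes, 10 on each side, 0 passed limma's adjusted p of 0.05, where 1.22% of all tested genes did. An unadjusted p under 0.05 was found for 5 of the 20, near the background of 24.2% of all tested genes (2100 of 8688). The median log2 difference of the 20 was 0.19, against 0.047 over all tested genes and -2.80 to -6.95 for Rhox5, Rhox6 and Rhox9. Those 3 genes were chosen by this difference, so nothing is read from that contrast. The nearest before Rhox1 were the zinc finger gene Rnf113a1 (1.09 ± 0.25) and the respiratory chain subunit gene Ndufa1 (-0.24 ± 0.25). The nearest after Rhox13 were Zbtb33, which encodes the methyl-CpG binding protein Kaiso (0.56 ± 0.25), and Lamp2, a lysosomal membrane protein gene (-0.41 ± 0.32). Their adjusted p were 0.124, 0.594, 0.279 and 0.489.

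Among the 20, both EpiSC lines lay below OG2 for 8 and above it for 11. The largest differences were those of the chromatin remodeller gene Smarca1 (2.13 ± 0.29, adjusted p = 0.0704), the cytoskeletal gene Septin6 (1.73 ± 0.26, adjusted p = 0.0781, not above background in OG2 and at least 2.73-fold higher in EpiSC) and the ubiquitin ligase gene Cul4b (-1.33 ± 0.25, adjusted p = 0.0948). Septin6 passed the filter through EpiSC alone, which fixed its direction. The signal of Cul4b was 1063 in OG2, 476 in E3 and 490 in T9. Cul4b, the lowest of the 20, was 2.51-fold lower in EpiSC, and Rhox6 at least 4.78-fold. Rhox6 was chosen by its difference, so nothing is read from that contrast either.

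**Figure D3:**
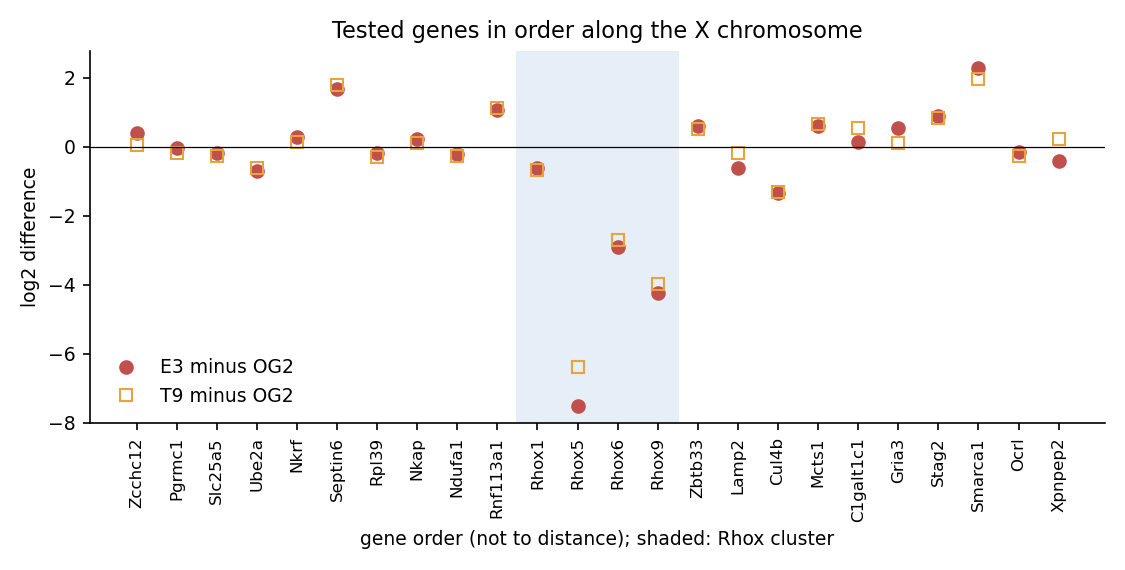
Log2 difference of E3 (circles) and T9 (squares) from OG2 for tested genes in their order along the X chromosome, not drawn to distance, with the Rhox cluster shaded. Rhox5, Rhox6 and Rhox9 lie between -2.70 and -7.51 in each line, and the 20 genes beside the cluster between -1.35 and 2.29.

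The rest of the X chromosome was described in the same fit. The 295 X-linked tested genes apart from Rhox5, Rhox6 and Rhox9 had a median log2 difference of 0.22, 0.15 in E3 and 0.20 in T9, against 0.047, 0.035 and 0.031 over all tested genes. That median was 0.021 with no filter on dim probes and 0.12 with no background correction. Of the 295 genes 7 passed the test, 4 lower and 3 higher (2.37%, against 1.22% over all tested genes, of which 0.921% were lower and 0.299% higher). The 4 lower genes were Fmr1nb (at least 24.8-fold), known from testis, Taf7l (at least 9.05-fold), a germ cell subunit of transcription factor TFIID, the ferritin-like gene Fthl17f (at least 9.61-fold) and Ezhip (at least 6.49-fold), whose product inhibits the Polycomb methyltransferase EZH2. Their adjusted p were between 0.0317 and 0.0370. Each of the 4 was detected in OG2 only, which fixed its direction. The 3 higher genes were Pim2, Rbmx and Zcchc18, with 9.12, 9.53 and 8.98 in T9 and 8.95, 9.44 and 8.63 in E3. In OG2 they lay at 4.23, 5.21 and 5.65. Pim2 was not above background in OG2, which fixed its direction (at least 17.9-fold higher in EpiSC). With an offset of 1 in the background correction, in the authors' values or with no filter on dim probes, 0 X-linked genes passed limma's threshold, and 0 probes passed it overall (2822, 2899 and 4462 at an unadjusted p under 0.05).

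The genes most like Rhox5 in their pattern were sought by the distance between pairs of log2 differences, E3 minus OG2 and T9 minus OG2, over 7427 genes detected in OG2. With 3 arrays this is a description of likeness only, and both differences share the OG2 array. The nearest was the orphan nuclear receptor gene Esrrb at a distance of 0.53, with levels of 12.54 in OG2, 6.46 in T9 and 5.46 in E3. The lysosomal gene Laptm5 followed at 0.88 (12.68, 7.09 and, not above background, 4.79), then the zinc finger gene Zfp42 at 1.44 (11.43, 5.84 and 5.13) and Rbmxl2 at 1.54 (10.75 in OG2, not above background in EpiSC). Esrrb, Laptm5 and Zfp42 had T9 above E3, as Rhox5 did, which the choice by distance favours, so nothing is read from it. None of the 4 lies on the X chromosome.

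For Rhox9 the nearest were Enox1 (distance 0.074), the folate receptor gene Folr1 (0.20), the anion exchanger gene Slc4a3 (0.27) and Tex19.1 (0.33). Slc4a3 and Tex19.1 were detected in all 3 lines, and Tex19.1 lay at 10.87 in OG2, 7.02 in T9 and 6.32 in E3. For Rhox6 they were Itpka, 2410137M14Rik, Nupr1 and AI467606, all at 0.10 to 0.12. Of these only Nupr1 was detected in all 3 lines. The EpiSC values of Rhox6 and Rhox9 lie at background, which limits what these distances describe.

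**Figure D4:**
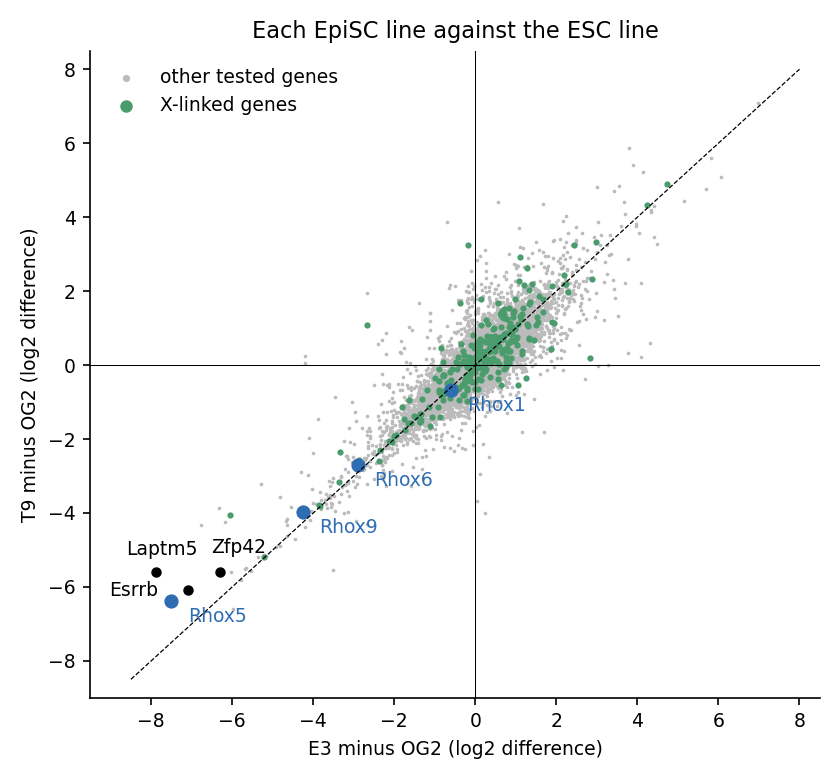
Log2 difference from OG2 in E3 (horizontal axis) and T9 (vertical axis) for each of 8688 tested genes, with X-linked genes in green, Rhox genes in blue and the 3 genes nearest Rhox5 that were detected in T9 in black. The dashed line marks equal differences. Rhox5 (-7.51 and -6.39) lies at the lower left end and above the dashed line, Rhox9 and Rhox6 close to it, and Rhox1 near the origin.

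Genes with known links to Rhox5 or to its regulation were then described from lists chosen with earlier results known. The first holds germ cell genes that promoter DNA methylation is known to silence in the embryo. Of 23 with a probe 14 were tested, and 10 of these were detected in ESC only, which fixed their direction. Of the 14, 5 fell and 0 rose, where 0.921% of tested genes fell. The 5 were the RNA-binding protein gene Dazl (at least 31.6-fold, 9.81 in OG2), Tex19.1 (18.4-fold), Taf7l, Asz1, of the piRNA pathway, (at least 6.56-fold) and the tubulin gene Tuba3a (12.6-fold), with adjusted p between 0.0317 and 0.0453. Over all 14 the median log2 difference was -2.04, against 0.047 over all tested genes. It was -0.67 with no filter on dim probes, -0.87 with no background correction and -3.57 with an offset of 1. Under the settings that left no probe past the threshold 0 genes of the list passed. Tdrkh went the other way (2.42 ± 0.42, limma adjusted p = 0.0884). Its signal was 141 in E3 and 198 in T9, with none above background in OG2, which fixed its direction.

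Of 9 tested genes that set or remove DNA methylation or H3K9 methylation, 0 passed limma's threshold and 3 had an unadjusted p under 0.05, against 24.2% of all tested genes. The de novo methyltransferase gene Dnmt3b had a level of 13.81 in E3, 12.47 in T9 and, lowest, 11.50 in OG2 (1.64 ± 0.63, adjusted p = 0.233). Dnmt3l, also on the germline list, lay at 6.23, 8.29 and 11.51 in the same order (-4.25 ± 0.93, adjusted p = 0.115). The maintenance enzyme gene Dnmt1 differed by -0.73 ± 0.25 (adjusted p = 0.205), the H3K9 methyltransferase gene Ehmt2 by 0.18 ± 0.26 and the glycosylase gene Tdg by 1.29 ± 0.25 (adjusted p = 0.0998). Dnmt3a was detected on no array.

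Of the factors known at the Rhox5 promoters, 3 were tested and 0 passed the threshold, with 1 at an unadjusted p under 0.05 (24.2% of all tested genes). The GABP subunit gene Gabpa lay at 6.70 in OG2, 5.89 in E3 and 5.76 in T9 (-0.88 ± 0.26, adjusted p = 0.166), its partner Gabpb1 at 7.42, 7.99 and 7.60, and Sp1 at 5.26, 5.11 and, not above background, 4.52. The 4 genes known to respond to Rhox5 in Sertoli cells, Unc5c, Ins2, Adipoq and Retn, were detected on no array. Of 6 tested paired-like homeobox genes outside the X chromosome 0 passed limma's threshold and 3 had an unadjusted p under 0.05, where 24.2% of all tested genes did. Crxos was detected in OG2 only, which fixed its direction (6.59, at least 3.41-fold lower in EpiSC, limma adjusted p = 0.0735). Otx2 gave 6.51 in OG2, 9.80 in T9 and 10.98 in E3 (limma adjusted p = 0.0781). Phox2a gave 5.04, 7.29 and 8.21 in the same order (limma adjusted p = 0.0890). The median log2 difference of the 6 was 0.78, against 0.047 over all tested genes. The X-linked homeobox genes Esx1, Cdx4 and Pou3f4 and the placental gene Plac1 were detected on no array.

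Markers of other cell types that express Rhox genes were compared, since such cells would carry Rhox transcripts with them. Of 10 tested trophoblast markers 0 passed limma's threshold (4 at an unadjusted p under 0.05, which 24.2% of all tested genes had). Elf5, Hand1, Tpbpa, Ascl2, Plac1, Esx1, Syna and Synb were detected on no array. Tead4 (signal 174), Gata2 (123), Gata3 (107) and Tfap2a (94.7) were detected in OG2 only, which fixed their direction. Detection in ESC alone was found for 6.27% of tested genes. Cdx2, the trophectoderm homeobox gene, and Eomes were detected in T9 only (signals of 116.1 and 115.6). Scanner signals were summed without background correction, so undetected probes add background to each sum here and below. The summed signal of the 10 genes was 3583 in OG2, 2734 in T9 and 1909 in E3, the order of Rhox5. Tfap2c carried that order, with signals of 1469, 609 and 165, and without it the sums were 2114, 2125 and 1744. Krt8 gave 1094, 1209 and 788 of these. Of 10 tested extraembryonic endoderm markers 0 passed (2 at an unadjusted p under 0.05), and Gata4, Sox7, Lamb1, Afp and Ttr were detected on no array. Gata6 lay at 5.65, 5.59 and 5.78 in OG2, T9 and E3. In the same order the signal of Lama1 was 247, 107 and 96.1 and that of Col4a1 187, 333 and 300. Foxa2 (145), Sox17 (114) and Pdgfra (97.9) were detected in T9 only. The summed signal of the 10 was 2968, 2661 and 1965, and 1111, 1223 and 1084 without Sparc, a matrix protein gene. Of 6 tested germ cell markers 0 passed (3 at an unadjusted p under 0.05), with summed signals of 5109, 5248 and 1565 (2162, 1361 and 630.1 without Ifitm3). Dppa3 gave 341, 152 and 111 in OG2, T9 and E3, and Dnd1 gave 154, 437 and 194. Prdm14 (100) and Nanos3 (98.3) were detected in OG2 only, which fixed their direction. Ddx4, Prdm1 and Itgb3 were detected on no array, and Tfap2c is on this list too. Of 7 tested fibroblast markers, which would show feeder cells, Lox alone passed, where 1.22% of all tested genes did. It was at least 11.5-fold lower in EpiSC (limma adjusted p = 0.0342) and detected in OG2 only, which fixed its direction. An unadjusted p under 0.05 was found for 3 of the 7. The summed signal was 3586 in OG2, 1353 in T9 and 1017 in E3. Without the smooth muscle actin gene Acta2 it was 1017, 627 and 801, and Thy1 ran the other way, at 101, 121 and 286. Leaving out the brightest gene of each list was chosen after seeing the data. The part of these cell types in the Rhox differences was not tested. In bulk RNA, fewer cells with a transcript and less of it per cell cannot be told apart.

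**Figure D5:**
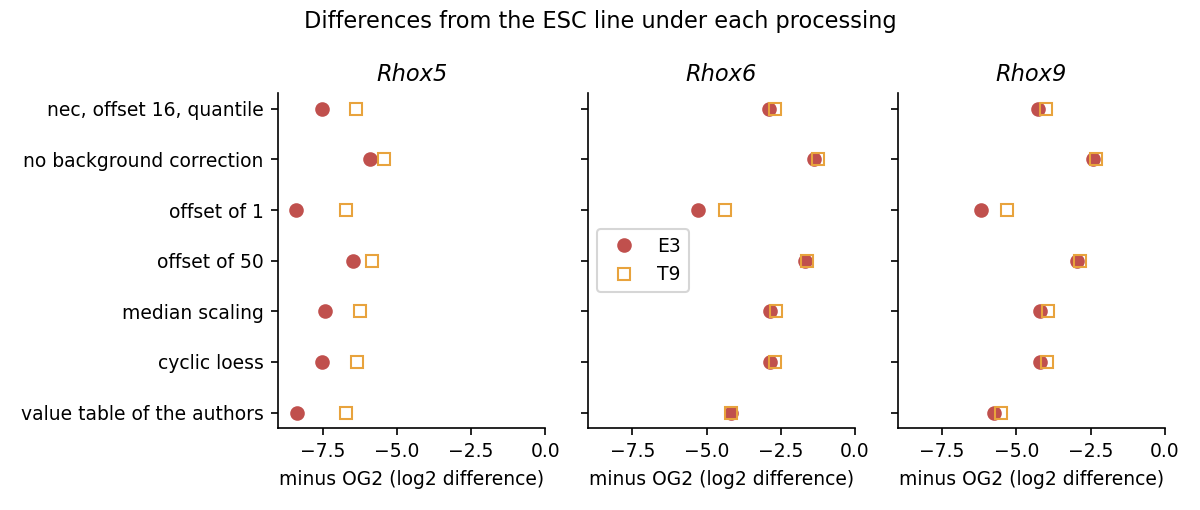
Log2 difference of E3 (circles) and T9 (squares) from OG2 for Rhox5, Rhox6 and Rhox9 under 7 ways of processing the arrays. The EpiSC mean ranges from -5.69 to -7.57 for Rhox5, from -1.31 to -4.84 for Rhox6 and from -2.37 to -5.76 for Rhox9, and every value is below 0.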

How the data were processed

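Total RNA (400 ng, 12 h of in vitro transcription, per the labels' protocols) was hybridised to 1 Illumina mouse array per line, and groups were taken from the sample titles. Per the file headers, the deposited tables give a signal intensity per probe, its standard error over beads and a detection p-value. BeadStudio was used, per the submitters' processing notes; the sources used here do not give its version, a genome build or how the authors normalized their processed intensity values. Of 25697 probes 23978 had 1 gene symbol, 0 several and 1719 none. Signals were background corrected with limma's nec (version 3.58.1 of limma, offset 16, which understates folds of dim genes), taken to log2 and quantile normalized. All 12603 probes detected somewhere (detection p under 0.01), standing for 8688 genes by the brightest probe, were compared between EpiSC and ESC with lmFit and eBayes in a two-sided test, with Benjamini-Hochberg adjustment over them and a threshold of 0.05. Its only spread is that between E3 and T9, which differ in background, and no label names a repeat culture. "At least" folds set undetected values to the lowest detected level of the array. They are bounds under this background correction only, and other background treatments gave smaller folds for Rhox6 and Rhox9. The alternatives were other background offsets, scalings and filters, the authors' values and leaving out 1 EpiSC line. Members of the gene lists, the 4 nearest genes by pattern, the 2 nearest tested genes on each side of the cluster and X-linked genes past the threshold could be named, and Smarca1 was singled out after its values were seen. The 3 genes and all 14 lists were chosen with earlier results of these data known. Chromosomes and gene order came from RefSeq (GRCm38.p6). The fit was tested on simulated data.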

Additional observations from a re-analysis of the deposited data

How the results depend on the processing

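Rhox5, Rhox6 and Rhox9 stayed lower in EpiSC under all alternatives run, and the sizes moved with the background treatment. With no background correction the mean log2 differences were -5.69, -1.31 and -2.37, with an offset of 50 they were -6.15, -1.67 and -2.89, and with an offset of 1 those of Rhox6 and Rhox9 were -4.84 and -5.76. In the authors' value table these were -4.17 and -5.64, with blanks at the lowest listed value. Leaving out 1 EpiSC line gave -6.31 to -7.55, -2.71 to -2.88 and -3.97 to -4.24. E3 minus T9 for Rhox5 was -1.13, and -0.47, -0.66, -1.69 and -1.65 with no background correction, offsets of 50 and 1 and the authors' values. The 145 probes past the threshold became 183 with no background correction, 98 with an offset of 50, 296 with median scaling, 344 with cyclic loess and 351 with a detection p under 0.05, and 0 with an offset of 1, in the authors' values or with no filter on dim probes (2822, 2899 and 4462 at an unadjusted p under 0.05). The share that was higher was 24.8%, against 37.2%, 35.5% and 36.2% under median scaling, cyclic loess and the looser filter. Of X-linked genes apart from Rhox5, Rhox6 and Rhox9, a count added after seeing the data, 7 passed, and 17, 19 and 20 under those same settings. With the 3 counted, which supports nothing since they were chosen by this difference, the numbers were 10, 20, 22 and 23. Germline genes went from 5 to 3 with an offset of 50, and paired-like homeobox genes from 0 to 1 with cyclic loess. Trophoblast and extraembryonic endoderm markers each went from 0 to 1 under median scaling, cyclic loess and the looser filter. Under the settings with 0 probes, X-linked, germline, fibroblast and cell state genes also gave 0. The cause was not tested. No paired analysis was possible because the labels give no replicate numbers and ESC has 1 array, which also could not be left out. Signal over background limits Rhox6 and Rhox9, whose EpiSC values are bounds.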
